A study of Mus musculus with 15 samples.

Results

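Ageing of the whole brain under every-other-day feeding (EOD, in which food was given on alternate days) was examined by comparing 4 old with 3 young EOD mice, chosen by the age and diet on their labels and making up 7 of the 15 mice of the series. All were male wildtype C57BL/6J mice, and the labels gave their ages as 24 and 3 months. The other 8 mice, 4 old and 4 young of the same sex, genotype and labelled ages, had food ad libitum (AL). Old EOD mice had been on the diet for most of their life and young EOD mice for a short time, so that age and time on the diet cannot be told apart in this comparison. Each mouse gave 1 RNA sequencing library of the snap-frozen whole brain.

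The ageing brain is known for transcripts of its glial cells. Microglia, the resident phagocytes, make the C1q recognition proteins of the classical complement pathway, which marks targets through C4 and C3, and carry receptors and lysosomal enzymes for clearing what has been marked. Astrocytes that respond to injury or inflammation fill with the filament proteins GFAP and vimentin, and oligodendrocytes wrap axons in myelin. Fasting and stress hormones act in the same tissue on genes such as Txnip, Ddit4 and Angptl4, whose level follows fuel supply and glucocorticoids.

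Between 5877267 and 9886766 reads were counted on genes in each young EOD mouse and between 8653827 and 11977663 in each old one. The first principal component, with 24% of the variance among the 7 libraries, put the young mice between -28.1 and -8.60 and the old mice between 7.12 and 19.8. Levels are given in CPM, the count of a gene scaled to a common TMM-adjusted library total of 1000000. Summed markers of neurons were at 7324 to 7622 CPM in young and 6847 to 7794 CPM in old mice, and those of astrocytes and oligodendrocytes were at 1293 to 1452 CPM and 5103 to 5914 CPM over the 7 libraries. Summed markers of liver and muscle reached at most 2.36 CPM and those of the pituitary at most 1.84 CPM. Choroid plexus markers varied within both groups (552 to 1094 CPM in young and 746 to 1362 CPM in old mice), with 0 of 20 past the threshold. The 5 red blood cell markers summed to 44.6 to 48.7 CPM in young and 50.8 to 100.7 CPM in old mice, a difference that no single member carried past the threshold, and the part of blood in the results below was not tested. Young AL mouse 3 stood apart from the other 14 libraries with 17280 genes counted against 19054 to 20880. The main fits that involve AL mice are given with and without it, while mean levels of young AL mice include it. Nothing in the labels says more of the replicates than that each is a mouse, so that p-values measure the spread between these mice.

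Of 15342 genes tested, 66 differed between old and young EOD mice (edgeR quasi-likelihood test, Benjamini-Hochberg adjusted p, here FDR, under 0.1), which is 0.43% of the genes tested. Increases were the more frequent: 54 genes increased (0.352%) and 12 decreased (0.0782%). The log2 fold changes of the increased genes ran from 0.30 to 6.57 with a median of 0.79, and 17 exceeded a doubling. Those of the decreased genes ran from -0.35 to -1.12 with a median of -0.46. In all 66 the values of the 4 old mice lay apart from those of the 3 young mice, as they did in 9.06% of all genes tested. At an unadjusted p under 0.05, 657 genes were higher and 716 lower (8.95% of genes in all), so that the excess of increases was seen among the genes past the threshold and not among those with weaker differences. Leaving out young mouse 1 or young mouse 2 lowered the number of genes past the threshold to 35 and 37.

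**Figure D1:**
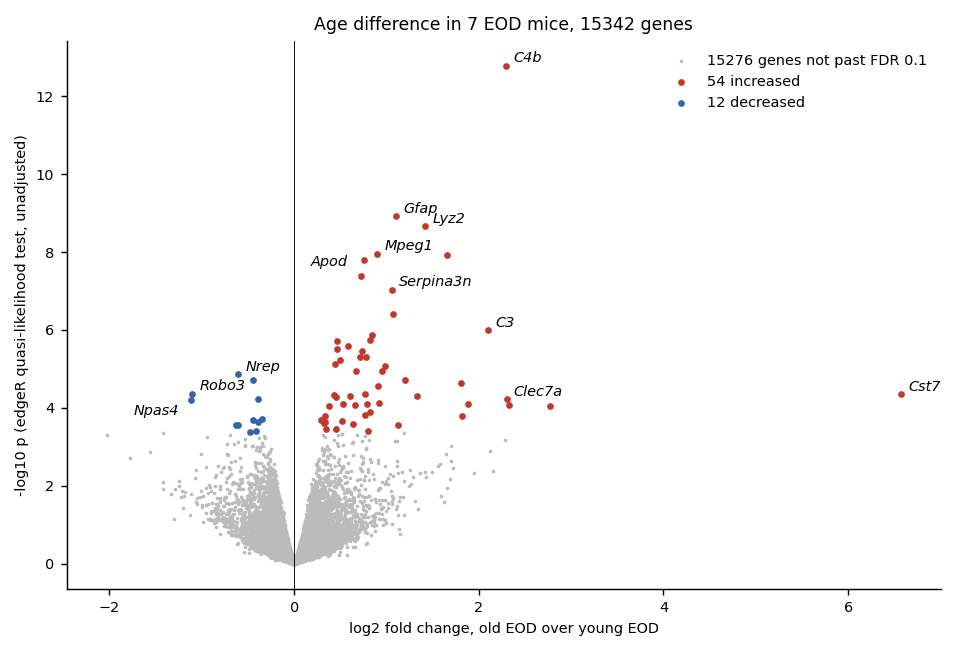
Each point is 1 of 15342 genes in the 7 EOD mice. The horizontal axis gives the log2 fold change of old over young mice and the vertical axis the -log10 of the unadjusted p. The 54 increased genes, led by C4b, reach further from zero than the 12 decreased genes.

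The complement pathway held the clearest single difference. C4b, the complement component that C1q-associated proteases cleave (ENSMUSG00000073418, chr17:34728380-34743882, GRCm38), stood at 16.5, 13.9 and 14.3 CPM in the 3 young and at 72.2, 77.8, 75.9 and 70.2 CPM in the 4 old mice. The groups lay far apart and each was narrow, with a mean of 14.9 ± 1.40 CPM in young (SD, n = 3) and 74.0 ± 3.45 CPM in old mice (SD, n = 4). Its log2 fold change was 2.29 ± 0.10 (FDR = 2.51e-09), the smallest p of all genes, where the value after ± beside a log2 fold change is its standard error here and below. C4b has a near-identical neighbour, C4a, which did not pass the filter on low counts, and reads that fit both copies could have been lost or given to either.

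C3, the component on which all complement pathways meet, was scarce in young mice, at 1.13, 1.38 and 1.97 CPM, and stood at 4.94, 6.14, 7.27 and 7.21 CPM in old mice. Each old mouse had more than any young mouse, and the log2 fold change was 2.10 ± 0.27 (FDR = 0.00158). The 3 chains of C1q are encoded side by side on chromosome 4. C1qa stood at 23.7, 22.2 and 22.1 CPM in young and 37.02, 45.4, 43.6 and 35.5 CPM in old mice, a log2 fold change of 0.82 ± 0.11 (FDR = 0.00225). C1qb and C1qc increased alike, by 0.67 ± 0.11 and 0.77 ± 0.14 on the log2 scale (FDR = 0.00766 and 0.0218). Within the old group mice 2 and 3 had the higher C1qa levels, and mouse 2 was highest for C1qb and C1qc.

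Of the 22 complement genes tested, 6 increased and none decreased. The sixth was Itgb2, the beta chain shared by complement receptors 3 and 4 (0.80 ± 0.18, FDR = 0.0915). The median log2 fold change of the 22 genes was 0.30, against -0.003 over all genes tested. The number past the threshold ran from 4 to 8 over 18 other settings, and was 4 without young mouse 1 and 4 without young mouse 2. In whole tissue, more cells of a type and more RNA per cell cannot be told apart.

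**Figure D2:**
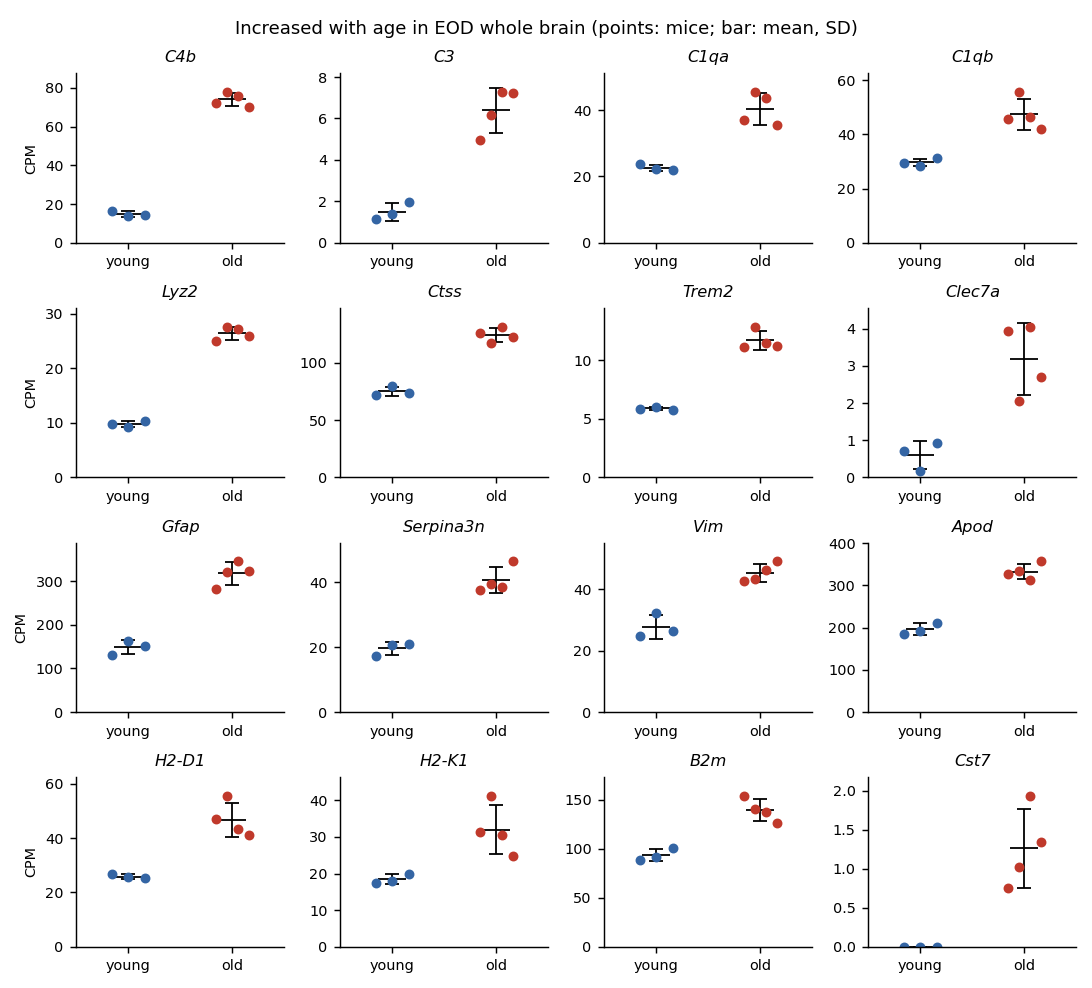
Each panel gives the CPM of 1 gene in the 3 young (blue) and 4 old (red) EOD mice, with the mean and SD as bars and an axis that starts at 0. In all 16 genes the lowest old mouse lies above the highest young mouse, and Cst7 is at 0 in all young mice.

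Genes known from microglia were frequent among the increases. Of 29 tested genes known from phagocytically active, disease-associated microglia, 11 increased and none decreased, with a median log2 fold change of 0.52 and 28 of 29 above 0. Lyz2, a lysozyme of phagocytes with a close copy in Lyz1, stood at 9.86, 9.28 and 10.4 CPM in young and 25.04, 27.7, 27.3 and 25.9 CPM in old mice, a log2 fold change of 1.42 ± 0.12 (FDR = 1.11e-05). Ctss, a lysosomal protease of microglia, stood at 71.97, 79.6 and 73.3 CPM in young and 126, 117, 131 and 122 CPM in old mice (0.73 ± 0.07, FDR = 9.03e-05). In both genes the old mice varied by less than the distance between the groups.

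Trem2, the lipid receptor that microglia need for this state, was nearly constant among young mice at 5.85, 6.02 and 5.78 CPM and stood at 11.1, 12.9, 11.5 and 11.3 CPM in old mice. The log2 fold change was 0.99 ± 0.15 (FDR = 0.00602). Clec7a, a receptor for fungal glucans, was close to its limit of detection in young mice at 0.719, 0.172 and 0.92 CPM and stood at 3.94, 2.05, 4.05 and 2.69 CPM in old mice, where mice 1 and 3 were the higher pair. Its log2 fold change of 2.30 ± 0.42 (FDR = 0.0251) rests on 15 counts in the young and 137 counts in the old mice. Cst7, an inhibitor of lysosomal cysteine proteases, had no count in any young mouse and stood at 0.754, 1.02, 1.93 and 1.35 CPM in the old mice, 53 counts in all. Set against the limit that a count of 0 allows (3 counts over the young group, 0.13 CPM), Cst7 was at least 9.76-fold higher in old mice, and this limit covers counting error only.

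The other members past the threshold were B2m, described with the MHC genes, the membrane glycoprotein Gpnmb (1.33 ± 0.24, FDR = 0.0224), the chemokine Ccl6 (1.88 ± 0.36, FDR = 0.029), the ferritin heavy chain Fth1 (0.37 ± 0.07, FDR = 0.0308) and the cathepsins Ctsd and Ctsz (0.34 ± 0.07 and 0.52 ± 0.11, FDR = 0.05 and 0.0612). Ccl6 rests on 25 counts in the young and 172 in the old mice. Ctsd and Ctsz each passed in 10 of 18 other settings. Fth1 stood at 884, 830.1 and 966 CPM in young and 1161, 1147, 1064 and 1269 CPM in old mice, a small shift in an abundant transcript whose groups lay apart. The count of 11 fell to 4 without young mouse 1, to 7 without young mouse 2 and to 5 with the sequencing lane as a term, and was 17 with no filter on low counts.

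Of 17 tested genes of resting microglia, 1, not reported here, increased and none decreased. The number past the threshold was 1 to 2 over 18 other settings. Olfml3 and Cx3cr1, the fractalkine receptor, had log2 fold changes of 0.36 ± 0.11 and 0.28 ± 0.09 that did not pass (FDR = 0.33 and 0.35). In 16 of the 17 the log2 fold change was above 0, with a median of 0.34. The summed level of Cx3cr1, Csf1r, Tmem119 and P2ry12, the markers used to find microglia in the tissue, was 189 to 196 CPM in young and 204 to 236 CPM in old mice, and none of the 4 passed the threshold. The part of a general rise of microglial RNA in the differences above was not tested.

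Among 30 tested Fc receptor and phagocyte signalling genes, only Ly86, a partner of a toll-like receptor homologue, increased (0.95 ± 0.15, FDR = 0.00766). The inhibitory receptor Fcgr2b stood at 3.9, 5.16 and 4.47 CPM in young and 8.21, 6.83, 8.1 and 6.25 CPM in old mice, groups that did not overlap, but its log2 fold change of 0.73 ± 0.19 did not pass (FDR = 0.198). The median over the 30 genes was 0.50, close to that of the disease-associated list, with 27 above 0. Further increased genes of this kind were Mpeg1, a pore-forming protein of macrophages, at 36.7, 33.5 and 35.5 CPM in young and 67.4, 63.7, 69.3 and 63.5 CPM in old mice (0.90 ± 0.08, FDR = 3.67e-05), and Lag3, an inhibitory receptor for MHC class II, with 1.20 ± 0.20 (FDR = 0.0117).

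Lysosomal genes overlapped with these. Of 41 tested, 4 increased and none decreased, and the cathepsins Ctss, Ctsd and Ctsz, named above, were among the 4. The number past the threshold ran from 2 to 5 over 18 other settings. The median log2 fold change was 0.15, and 37 of the 41 were above 0.

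RNA of the classical MHC class I heavy chains and of their light chain increased. H2-D1, a classical heavy chain, stood at 26.8, 25.6 and 25.2 CPM in young and 46.9, 55.5, 43.5 and 41.1 CPM in old mice (0.85 ± 0.11, FDR = 0.00191). H2-K1, the other classical heavy chain of this strain, stood at 17.6, 17.9 and 19.98 CPM and 31.5, 41.2, 30.5 and 24.9 CPM (0.79 ± 0.15, FDR = 0.029). B2m, the light chain that both need to reach the surface, stood at 88.2, 91.8 and 100.4 CPM and 154, 140.3, 138 and 126 CPM (0.58 ± 0.08, FDR = 0.00284). Old mouse 2 was the highest for both heavy chains and old mouse 4 the lowest for all 3 genes, while the young mice differed little. H2-D1 and H2-K1 are close in sequence, and reads could be misassigned between them.

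The 250 bases before the start of these 3 genes are shown because they are the called members of 1 complex whose promoters are known to share control elements. They are RefSeq sequences of GRCm38.p6, read in the direction of the gene, with the base next to the start at the right end. H2-K1 lies at chr17:34000348-34000597 on the minus strand, H2-D1 at chr17:35262844-35263093 on the plus strand and B2m at chr2:122147437-122147686 on the plus strand. Capitals mark matches, on either strand, to the kappaB consensus, to the interferon-stimulated response element (ISRE; GAAA, any 2 bases, GAAA), to the shorter form GAANNGAAA, whose matches can share bases with the former, and to CCAAT.
H2-K1: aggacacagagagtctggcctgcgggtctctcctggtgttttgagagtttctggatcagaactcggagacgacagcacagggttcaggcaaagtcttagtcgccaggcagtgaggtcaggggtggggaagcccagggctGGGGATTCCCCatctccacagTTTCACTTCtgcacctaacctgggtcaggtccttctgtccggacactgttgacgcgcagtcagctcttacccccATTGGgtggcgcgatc
H2-D1: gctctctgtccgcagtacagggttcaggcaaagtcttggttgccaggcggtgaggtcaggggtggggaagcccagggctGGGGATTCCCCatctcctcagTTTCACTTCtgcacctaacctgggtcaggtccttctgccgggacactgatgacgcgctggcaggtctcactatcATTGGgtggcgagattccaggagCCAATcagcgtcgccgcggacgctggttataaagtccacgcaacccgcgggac
B2m: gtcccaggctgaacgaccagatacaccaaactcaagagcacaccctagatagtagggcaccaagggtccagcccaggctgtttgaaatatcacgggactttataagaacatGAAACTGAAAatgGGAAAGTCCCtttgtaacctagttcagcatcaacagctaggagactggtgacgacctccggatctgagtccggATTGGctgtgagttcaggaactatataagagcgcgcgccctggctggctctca
All 3 windows held a kappaB match and a CCAAT match. H2-K1 and H2-D1 held the same GAANNGAAA match, written TTTCACTTC in the printed direction, at 90 and 150 bases before the start, and B2m held GAAACTGAAA at 139 bases before the start. The motifs were chosen with these letters in view. In the first listed promoter of each of 27025 genes, a kappaB match occurred in 7.01%, an ISRE match in 3.04%, GAANNGAAA in 6.34% and CCAAT in 34.5%. Of the 19 tested MHC class I genes with a listed promoter, 8 held a kappaB match, 3 held an ISRE match and 5 held GAANNGAAA. A match describes the letters and not whether a factor binds there.

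In all, 3 of the 22 MHC class I genes tested increased, with a median log2 fold change of 0.35 and 20 above 0. The number past the threshold ran from 2 to 6 over 18 other settings. H2-K1 did not pass without young mouse 1 or without young mouse 2. None of the 6 MHC class II genes tested passed, although all 6 were above 0 and their median was 0.84. Cd74, the invariant chain of class II, stood at 3.08, 1.89 and 6.05 CPM in young and 5.19, 10.01, 9.58 and 7.89 CPM in old mice (1.11 ± 0.31, FDR = 0.234), so that young mouse 3 reached into the range of the old mice. At 2.26, 2.41 and 2.89 CPM and 3.6, 5.12, 4.14 and 4.81 CPM, H2-Aa did not overlap between the groups and did not pass (0.80 ± 0.24, FDR = 0.297).

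Of 50 interferon-stimulated genes tested, 2 increased: Ifi27, a small protein that interferon induces (0.74 ± 0.11, FDR = 0.00326), and Lgals3bp, a secreted binding partner of galectin 3 (0.82 ± 0.16, FDR = 0.0414). Irgm1, an interferon-induced GTPase, stood at 14.1, 12.9 and 12.4 CPM in young and 18.1, 18.2, 17.9 and 19.05 CPM in old mice and did not pass (0.47 ± 0.12, FDR = 0.144). The median of the 50 was 0.24, with 43 above 0, and 1 member passed when young mouse 2, young mouse 3 or old mouse 1 was left out. Zc3hav1, an antiviral RNA-binding protein that was not on the list, increased by 0.90 ± 0.15 on the log2 scale (FDR = 0.0148). Of 6 lymphocyte and immunoglobulin genes tested none passed, and the kappa light chain Igkc was at 0.308, 0.516 and 0.263 CPM in young and 1.51, 0.683, 2.39 and 1.54 CPM in old mice (2.12 ± 0.54, FDR = 0.164).

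Of the astrocyte genes, 4 on the reactive list and none on the resting list increased. Gfap, the astrocyte filament protein, stood at 131, 162 and 153 CPM in young and 283, 321, 345 and 324 CPM in old mice (1.10 ± 0.09, FDR = 9.32e-06). Serpina3n, a secreted protease inhibitor, stood at 17.2, 20.6 and 21.03 CPM and 37.8, 39.6, 38.7 and 46.5 CPM (1.06 ± 0.11, FDR = 0.000178). Vim, the filament protein vimentin, which blood vessels also express, stood at 24.6, 32.2 and 26.5 CPM and 42.6, 43.5, 46.3 and 49.1 CPM (0.72 ± 0.11, FDR = 0.00424). With C4b these were 4 of the 23 reactive astrocyte genes tested, and none of the 23 decreased. The median of the 23 was 0.39. These 4 passed in each of 18 other settings, with 1 further member past the threshold in some.

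Of 24 resting astrocyte genes tested, none passed in either direction, and their median was -0.03. S100b, a calcium-binding protein, had the smallest p of the list, at 146, 158 and 154 CPM in young and 175, 176, 179 and 199 CPM in old mice (0.26 ± 0.07, FDR = 0.234), so that every old mouse was higher. The gap junction protein Gja1 was lower in every old mouse, at 314, 334 and 317 CPM in young and 266, 282, 284 and 289 CPM in old mice, a log2 fold change of -0.20 ± 0.06 that did not pass (FDR = 0.314). The summed level of the 24 genes was 10370 to 10820 CPM in young and 9861 to 10660 CPM in old mice. Il33, an alarmin of astrocytes and oligodendrocytes, stood at 105, 95.8 and 104 CPM and 122, 116, 147 and 129 CPM and did not pass (0.34 ± 0.08, FDR = 0.157).

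Of 32 tested genes of mature oligodendrocytes and myelin, 3 increased and 1 decreased. The number past the threshold ran from 2 to 9 over 18 other settings. Apod, a lipid-binding protein of oligodendrocytes, stood at 184, 192 and 212 CPM in young and 327, 333, 313 and 357 CPM in old mice (0.76 ± 0.07, FDR = 4.13e-05). Car2, the carbonic anhydrase of myelin-forming cells, stood at 231, 221 and 218 CPM and 320.4, 309, 294 and 310.4 CPM (0.46 ± 0.06, FDR = 0.00226). Anln, the actin- and septin-binding protein anillin, increased by 0.61 ± 0.11 on the log2 scale (FDR = 0.0224). Against these increases, the tetraspanin Tspan2 fell from 243, 263 and 265 CPM in young to 186, 183, 215 and 201 CPM in old mice (-0.39 ± 0.07, FDR = 0.0251). Anln passed in 14 and Tspan2 in 15 of 18 other settings. The 32 genes tested had a median of 0.14, and their summed level of 9640 to 10200 CPM in young and 9789 to 10590 CPM in old mice overlapped.

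Of 27 tested genes of oligodendrocyte precursors and newly formed oligodendrocytes, Gpr17, a receptor of cells about to differentiate, decreased and none increased. Gpr17 stood at 59.1, 67.1 and 47.97 CPM in young and 30.2, 36.3, 35.8 and 47.1 CPM in old mice (-0.63 ± 0.14, FDR = 0.0705). Old mouse 4 lay just below young mouse 3, so that the groups barely separated. The median of the 27 genes was -0.07. Gpr17 no longer passed without young mouse 1 or 2 or without old mouse 1, 2 or 3.

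Several increased genes lie outside these groups and were named after their values had been seen. The RNAs of the mitochondrial ribosome, mt-Rnr1 and mt-Rnr2, increased by 0.44 ± 0.07 and 0.46 ± 0.07 on the log2 scale (FDR = 0.00566 and 0.00311), and took 0.279% to 0.321% and 0.416% to 0.479% of all counts in young mice against 0.388% to 0.434% and 0.595% to 0.649% in old mice. Neither passed with the sequencing lane as a term, and mt-Rnr1 also did not pass with replicate as a term. Of 13 mitochondrially encoded mRNAs listed, 4 had no count in any EOD mouse and only 7 were tested. None of the 7 passed, with log2 fold changes of -0.05 to 0.10. None of 71 nuclear-encoded genes of oxidative phosphorylation passed either, with a median of 0.06. Whether these ribosomal RNAs follow the preparation of the libraries was not tested.

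Clustered protocadherins, cell adhesion proteins that give neurons their identity to each other, held 4 increased genes. Of 21 beta genes tested, Pcdhb9 (0.78 ± 0.12, FDR = 0.00424), Pcdhb13 (0.77 ± 0.16, FDR = 0.0489) and Pcdhb2 (1.13 ± 0.24, FDR = 0.0705) increased and none decreased. In the neighbouring gamma cluster, for which no list was made, Pcdhga2 increased by 0.64 ± 0.14 (FDR = 0.0693). Pcdhb13, Pcdhb2 and Pcdhga2 passed in 11, 7 and 8 of 18 other settings. Pcdhb9 stood at 17.5, 17.7 and 21.4 CPM in young and 32.2, 36.9, 31.3 and 29.9 CPM in old mice. The 21 genes ran from -0.52 to 1.13 with a median of 0.22 and 14 above 0. These genes are close copies of each other, which makes the split of reads between them uncertain, and 1 beta gene passed without young mouse 3, old mouse 1 or old mouse 3, and with the lane as a term.

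Abca8a, a lipid transporter, stood at 22.5, 18.2 and 19.98 CPM in young and 44.6, 36.1, 51.7 and 39.4 CPM in old mice (1.08 ± 0.13, FDR = 0.000676). Spag6, a protein of the axoneme of motile cilia with a close copy in Spag6l, stood at 1.44, 1.55 and 1.18 CPM and 5.7, 5.92, 4.88 and 3.08 CPM (1.81 ± 0.30, FDR = 0.013). The gene ENSMUSG00000095041, which has no symbol in the gene names used and lies on the unplaced scaffold JH584304.1, stood at 31.6, 46.3 and 39.7 CPM and 135, 111, 149 and 92.2 CPM (1.65 ± 0.15, FDR = 3.67e-05). In all 3 the old mice lay apart from the young mice, and in Spag6 old mouse 4 was the lowest of the old mice.

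The remaining increased genes belonged to none of the lists. Scarce among them were Cxcl5, a chemokine for neutrophils, at 0.308, 0 and 0.526 CPM in young and 2.35, 1.59, 2.85 and 1.64 CPM in old mice (2.77 ± 0.53, FDR = 0.0308), and Ly9, a receptor of leukocytes, at 0.411, 0.172 and 0.394 CPM and 2.09, 1.82, 1.75 and 1.44 CPM (2.33 ± 0.44, FDR = 0.029). Both rest on few counts, Cxcl5 on 7 in the young and 90 in the old mice and Ly9 on 8 and 75. Abundant among them were Cst3, the protease inhibitor cystatin C, at 441, 481 and 539 CPM and 631, 593, 602 and 636 CPM (0.34 ± 0.07, FDR = 0.0632), and Gatm, an enzyme of creatine synthesis, at 191, 194 and 189.9 CPM and 251, 240.3, 299.8 and 247 CPM (0.44 ± 0.08, FDR = 0.0218). Cst3 passed in 9 and Gatm in 14 of 18 other settings. The others were A2m, Atp1b3, Cab39l, Fgfr2, Frmd8, Gngt2, Itgb5, Plekhb1 and Pmp22, with log2 fold changes from 0.30 in Plekhb1 to 1.82 in Gngt2. Gngt2 rests on 14 counts in the young and 91 in the old mice and passed in 9 of 18 other settings.

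The 12 decreased genes belonged to no single group. Nrep, a protein of regenerating neurons, had the smallest p, at 85.6, 103 and 106 CPM in young and 64.1, 62.4, 74.4 and 56.9 CPM in old mice (-0.60 ± 0.10, FDR = 0.00884). Robo3, an axon guidance receptor, stood at 5.96, 6.71 and 6.7 CPM and 2.68, 3.07, 3.13 and 3.08 CPM (-1.11 ± 0.20, FDR = 0.0218), and was with Npas4 the only decreased gene beyond a halving. Gpcpd1, Utp14b and Olfm2 had log2 fold changes of -0.35, -0.61 and -0.41 (FDR = 0.0584, 0.0705 and 0.0923). They passed in 6, 7 and 6 of 18 other settings.

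Npas4, a transcription factor induced by neuronal activity, stood at 8.42, 11.2 and 11.4 CPM in young and 6.11, 5.23, 3.5 and 4.04 CPM in old mice (-1.12 ± 0.21, FDR = 0.0257). It was the only one of 21 immediate-early genes past the threshold, and Egr1, at 197, 189 and 204 CPM and 156, 153, 79.6 and 137 CPM, did not pass (-0.58 ± 0.16, FDR = 0.21) although old mouse 3 was far below the rest. The median of the 21 genes was -0.29, with 1 above 0. Old mouse 3 was also the lowest for Npas4, and the count of immediate-early genes was 0 without young mouse 2 and 2 without old mouse 3. Npas4 itself passed in 12 of 18 other settings. It did not pass without young mouse 2 or 3, with lane or replicate as a term, or in the fit of 15 mice (FDR = 0.904). Camk4, a calcium-dependent kinase of neurons, was the only one of 47 synapse genes past the threshold, at 368, 340.4 and 311 CPM and 276, 235, 288 and 238 CPM (-0.39 ± 0.08, FDR = 0.0647). The median of the 47 was -0.10, with 9 above 0 against 7547 of 15342 genes in all. The count of synapse genes was 0 without young mouse 1 or 2 or old mouse 1, 2 or 4, and 4 without young mouse 3. None of 39 genes of neurogenesis, 37 of proliferation, 11 of cell cycle arrest and senescence, 34 of the endothelium, 47 of the extracellular matrix or 22 of the insulin and IGF axis passed in either direction.

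**Figure D3:**
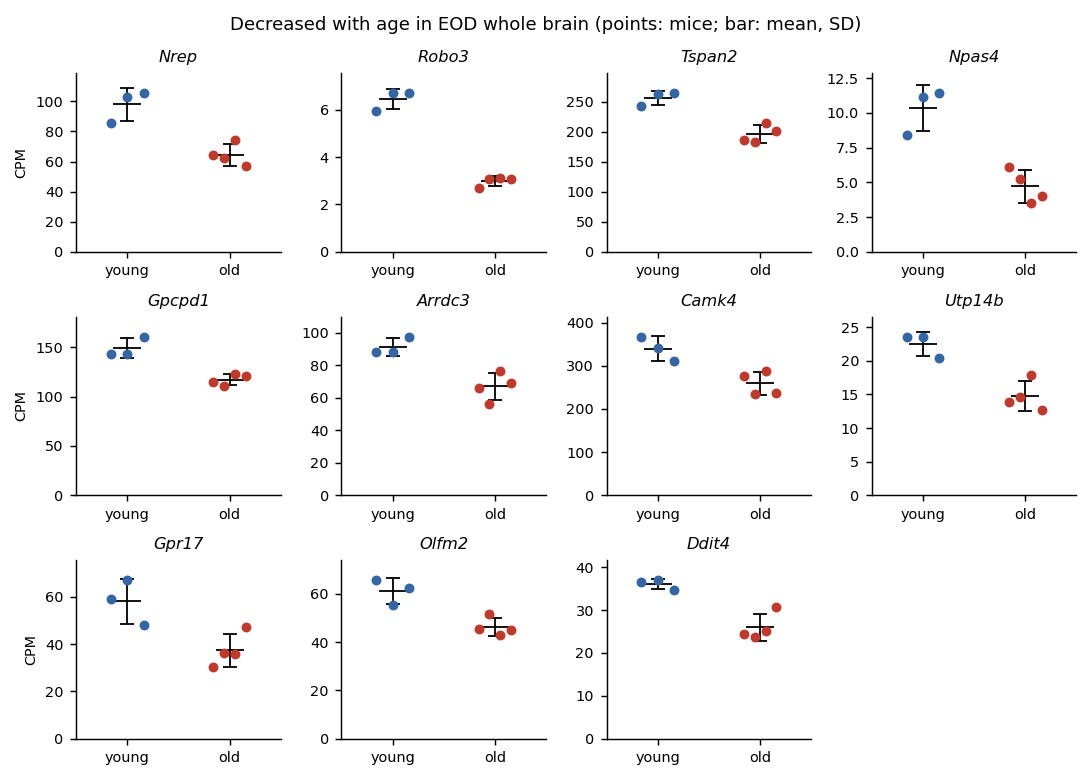
Each panel gives the CPM of 1 of 11 decreased genes in the 3 young (blue) and 4 old (red) EOD mice, with the mean and SD as bars and an axis that starts at 0. The groups lie apart in all 11 panels, by a small margin in Gpr17.

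Genes that respond to fasting and glucocorticoids had mostly negative log2 fold changes. Of 38 tested, 2 decreased and none increased. Arrdc3, an arrestin family member related to Txnip, stood at 88.1, 88.2 and 97.8 CPM in young and 65.9, 56.4, 76.3 and 69.5 CPM in old mice (-0.45 ± 0.09, FDR = 0.0604). Ddit4, an inhibitor of mTOR complex 1 that glucocorticoids induce, stood at 36.6, 36.97 and 34.7 CPM and 24.4, 23.7, 25.04 and 30.7 CPM (-0.48 ± 0.11, FDR = 0.096). In both genes the young mice were close together, and in Ddit4 old mouse 4 was the highest of the old mice. Arrdc3 passed in 11 and Ddit4 in 7 of 18 other settings.

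Angptl4, a fasting-induced inhibitor of lipoprotein lipase, missed the threshold by little, at 2.67, 3.61 and 4.47 CPM in young and 1.59, 0.683, 1.57 and 1.35 CPM in old mice (-1.42 ± 0.32, FDR = 0.1). The metallothionein Mt2 stood at 62.01, 45.2 and 59.7 CPM and 24.6, 44.3, 40.1 and 34.5 CPM (-0.65 ± 0.16, FDR = 0.134), and Txnip, an inhibitor of thioredoxin and of glucose uptake, at 39.4, 47.3 and 46.7 CPM and 30.7, 27.3, 36.9 and 34.4 CPM (-0.45 ± 0.11, FDR = 0.144). None of these 3 passed, although no old mouse reached the lowest young mouse. The median of the 38 genes was -0.16, with 8 above 0. The number past the threshold depended on the setting: it was 0 without young mouse 1, 2 or 3 or old mouse 1, and 11 with no filter on low counts. Clock genes, which are also set by feeding, had a median of -0.12 and none of 19 passed.

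**Figure D4:**
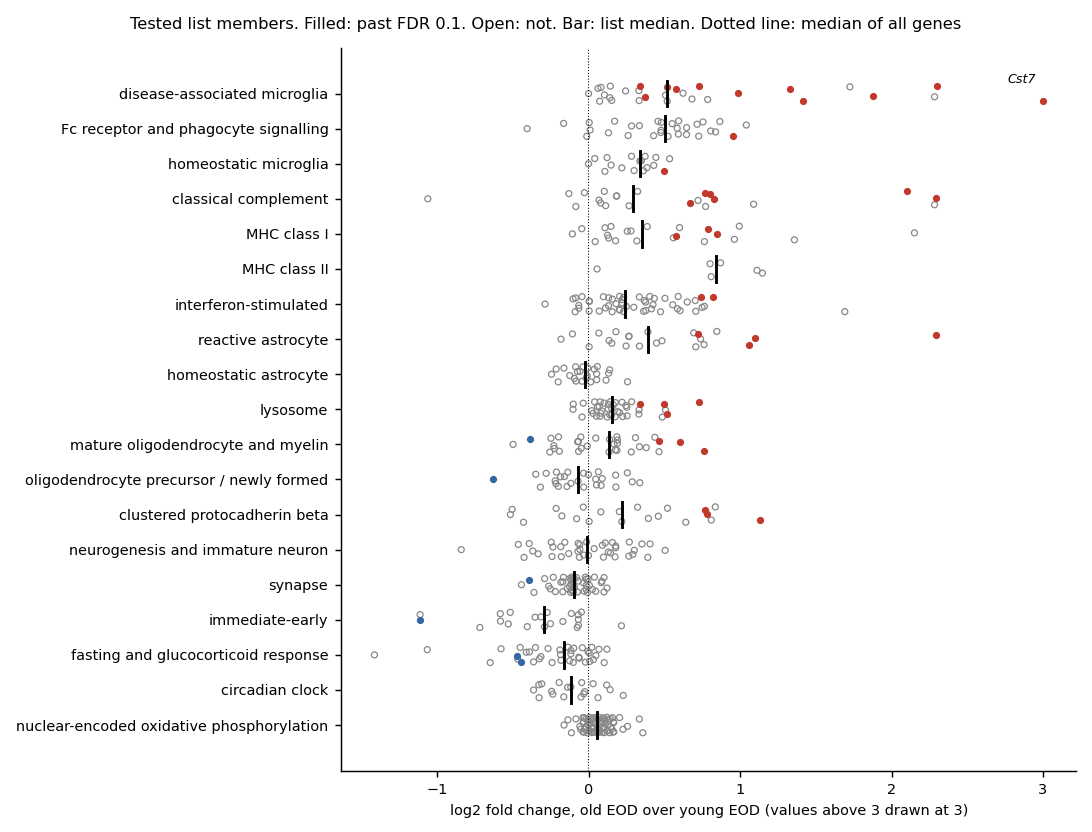
Each row is a gene list and each circle a tested member, placed by its log2 fold change of old over young EOD mice. Filled circles are past FDR 0.1 (red increased, blue decreased), bars are list medians and the dotted line is the median of all genes tested. The microglial, complement, MHC and reactive astrocyte lists lie to the right of the line, the immediate-early and fasting lists to its left.

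The design also asks whether ageing took a different course under EOD than under AL. Of the 54 genes that increased in EOD mice, all 54 were also higher in old than in young AL mice, and 46 of them passed the threshold there (fit of 14 mice, without young AL mouse 3, in which 0.931% of 15687 genes increased and 0.0956% decreased). In the fit of 15 mice 47 passed, where 0.946% and 0.145% of 15864 genes did. Across all genes 62.6% had the same sign in both diets (62.1% with that mouse). The EOD and AL comparisons share no mouse. The AL fits, however, took their filter, scaling and spread from mice of both diets. Passing the threshold there is therefore not independent of the EOD mice. The median log2 fold change of the 54 genes was 0.79 in EOD and 0.83 in AL mice (0.85 in the fit of 15). Of the 12 genes that decreased in EOD mice, 9 were lower in old AL mice (8 with young AL mouse 3) and 2 passed, Nrep and Camk4, with medians of -0.46 in EOD and -0.21 in AL mice. As the genes were chosen for their size in EOD mice, their size there is favoured. Of the 12, Arrdc3, Ddit4 and Utp14b were higher in old than in young AL mice in both fits, and Npas4 in the fit of 15.

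Seen from the AL side, 146 genes increased with age in AL mice, and of the 139 with a value in EOD mice 137 were higher in old EOD mice and 46 passed. Their median was 0.81 in AL and 0.51 in EOD mice. In the fit of 15 mice 150 increased, of which 135 of 141 were higher in old EOD mice and 47 passed, with medians of 0.77 and 0.46, and here the choice favours the size in AL mice. The 48 genes past the threshold in both diets were 72.7% of the 66 EOD genes and 29.8% of the 161 AL genes, themselves 1.03% of the genes tested (49, 74.2% and 28.3% of 173, or 1.09%, with young AL mouse 3). In the fit of 14 mice the Fc receptor list held 12 increased genes in AL and 2 in EOD mice, and in the fit of 15 it held 8 and 1. The disease-associated microglia list held 17 and 13 in the fit of 14 mice and 18 and 9 in the fit of 15. No member of either list passed the test of the difference in either fit.

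That test, the interaction of age and diet, passed FDR 0.1 for none of 15687 genes in the fit of 14 mice or of 15864 genes in the fit of 15, and for none in DESeq2. With every gene of at least 1 count tested, 26 genes passed. At an unadjusted p under 0.05 there were 407 and 362 genes, 2.59% and 2.28% of those tested. C4b reached 99.5 ± 2.63 CPM in old AL mice (SD, n = 4) against 74.0 ± 3.45 CPM in old EOD mice (SD, n = 4), and its log2 fold change in AL mice was 2.62 ± 0.11 in the fit of 15 mice (2.74 ± 0.11 in the fit of 14). The difference of the age effects was -0.32 (unadjusted p = 0.0746) with young AL mouse 3 and -0.43 (unadjusted p = 0.0126) without it, and the adjusted p was 1 in both fits. Lyz2 had differences of -0.59 and -0.48 with and without that mouse (unadjusted p = 0.00494 and 0.0102). Those of Serpina3n were -0.47 and -0.51 (unadjusted p = 0.0122 and 0.00826), and neither gene passed after adjustment.

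The 3 genes with the smallest interaction p in the fit of 15 mice were Gm15441, Txnip and Sdc4. Txnip (chr3:96557957-96561883) lies within the span of Gm15441 (chr3:96555765-96566801) on the opposite strand, and the counting was set to use strand. Gm15441 stood at 10.3, 13.1 and 11.7 CPM in young and 6.2, 6.83, 9.76 and 8.08 CPM in old EOD mice, against 6.03 ± 1.27 CPM in young AL mice (SD, n = 4) and 9.31 ± 1.89 CPM in old AL mice (SD, n = 4). Txnip averaged 44.5 ± 4.37 CPM in young EOD mice (SD, n = 3) and 32.3 ± 4.22 CPM in old EOD mice (SD, n = 4), against 28.3 ± 3.3 CPM in young AL mice (SD, n = 4) and 34.1 ± 3.51 CPM in old AL mice (SD, n = 4). In both genes the young EOD mice had the highest mean of the 4 groups and the young AL mice the lowest. The differences of the age effects in the fit of 15 mice were -1.21 for Gm15441, -0.71 for Txnip and -0.55 for Sdc4, a heparan sulphate proteoglycan (unadjusted p = 0.000288, 0.000359 and 0.000566). Without young AL mouse 3 they were -1.11, -0.69 and -0.55 (unadjusted p = 0.000502, 0.000624 and 0.00087), and the adjusted p was 1 for each in both fits.

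Arrdc3 was also highest in young EOD mice, with 70.9 ± 2.67 CPM in young AL mice (SD, n = 4) and 76.9 ± 9.87 CPM in old AL mice (SD, n = 4), and an interaction p before adjustment of 0.000607 in the fit of 15 mice and 0.00082 in the fit of 14, where it lay below that of Sdc4. Ddit4 averaged 36.1 CPM in young EOD and 25.9 CPM in old EOD mice. Its mean was 25.6 ± 5.12 CPM in young AL mice (SD, n = 4) and 30.3 ± 8.66 CPM in old AL mice (SD, n = 4). The interaction p of Ddit4 before adjustment was 0.00796 in the fit of 15 mice and 0.0149 in the fit of 14, and it did not pass after adjustment. Over the 38 genes of the fasting and glucocorticoid list the median log2 fold change with age was -0.16 in EOD and 0.13 in AL mice (0.10 in the fit of 15), with 8 above 0 in EOD and 31 above 0 in AL mice (26 in the fit of 15). The time since the last meal at which each brain was taken is not on the labels, and its part in these values was not tested.

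**Figure D5:**
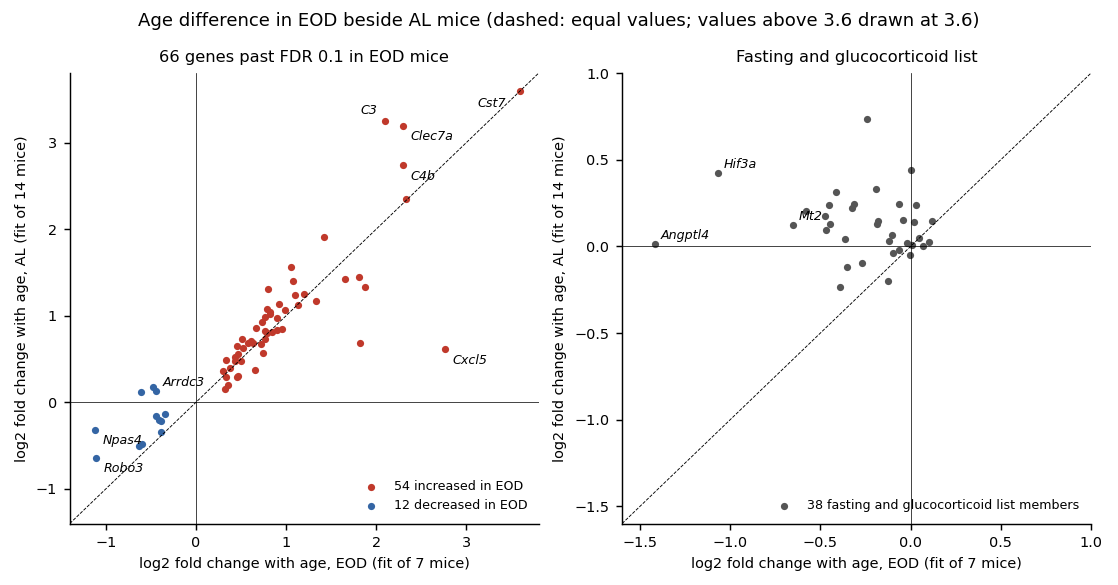
Log2 fold changes with age in EOD mice (horizontal, fit of 7 mice) and AL mice (vertical, fit of 14 mice) for the 66 genes past FDR 0.1 in EOD mice (left, 54 increased in red and 12 decreased in blue) and for the 38 tested genes of the fasting and glucocorticoid list (right). All 54 increased genes lie above zero in both diets, and 21 of them are larger in EOD mice. Some lie far from the dashed line of equal values, as Cxcl5 (2.77 in EOD, 0.61 in AL) and C3 (2.10 and 3.25). On the right 8 of 38 points lie to the right of zero.

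Lane, as named in the file headers, was not balanced: lane 1 held 1 old and 1 young EOD mouse, lane 2 held 1 old and 2 young, and lane 3 held 2 old mice. Within lane 1 the median log2 difference was 0.79 for the increased and -0.44 for the decreased genes, and within lane 2 it was 0.92 and -0.59. As the old mice lay apart from the young mice in all 66 genes, the direction within a lane was fixed by their choice. With lane as a term 32 genes passed, 27 of them among the 66. Of the 66 genes, 22 passed in each of 18 other settings, all of them increased: among these were C4b, C3, C1qa, C1qb, Lyz2, Ctss, Trem2, Gfap, Serpina3n, Vim, Apod, Car2, H2-D1 and B2m.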

How the data were processed

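Whole-brain RNA of 15 mice was sequenced in short single reads. Per the file headers and the study's methods, the authors removed adapters, used STAR against GRCm38, and took primary alignments of mapping quality 5 or more to reverse-stranded featureCounts 1.5.0-p1 with the genes of Ensembl release 79. The deposited values are raw counts of 43629 genes per mouse, of which 42462 received a symbol here.

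Groups follow the labels. For the 7 EOD mice the test was edgeR 4.0.16 (R 4.3.3; TMM, filterByExpr, quasi-likelihood F, Benjamini-Hochberg over all genes tested, FDR under 0.1, the threshold of the study). The AL age difference and the interaction come from fits of 4 group means over 15 mice and over 14. Printed CPM use TMM over 15 mice. Standard errors were derived from each log2 fold change and its F statistic. Of 9 pairs of EOD replicates none held identical values, and all differed by more than counting noise (chi-square per degree of freedom 3.08 to 7.05).

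The members and lists were chosen with earlier results of these data known. Named genes are the 12 increased and 8 decreased genes with the smallest p, the 4 largest changes in each direction (average log2 CPM of at least 1, groups apart), each list's 3 smallest p and all its members past the threshold, the 3 smallest interaction p, and C4b, Lyz2, C3, C1qa and Il33. Other genes were named after their values had been seen, and some genes that meet the rule are not reported here. Alternatives used DESeq2 1.42.0, limma 3.58.1 voom, RLE factors, other filters, lane or replicate terms and leaving out each mouse. DESeq2 on 15 mice and the within-lane values were chosen after seeing the data. The scripts were tested on simulated data.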

Additional observations from a re-analysis of the deposited data

Results flagged for a closer look

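The CPM of 133 genes and the total count were examined among the 4 old EOD mice. In 6 of these 134 groups of values a single mouse lay further from the others than Dixon's 95% critical value allows, where chance gives about 1 in 20. Robo3 was lowest in old mouse 1, at 2.68 CPM against 3.07 to 3.13 CPM in the other old mice. Ctsd was lowest in old mouse 3, at 438 CPM against 492 to 499 CPM, and this mouse was still above every young mouse. Ndufb4, a subunit of complex I, was lowest in the same mouse, at 10.3 CPM against 11.8 to 12.1 CPM. In old mouse 4, S100b, a calcium-binding protein of astrocytes, was highest at 199 CPM against 175 to 179 CPM. F5, a coagulation factor on the choroid plexus list, was lowest in that mouse at 5.29 CPM against 10.9 to 11.8 CPM, and so was Igfbp2, a binding protein of insulin-like growth factors, at 21.2 CPM against 26.6 to 27.5 CPM. Of the 6 genes, Robo3 and Ctsd were past the threshold.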

How the results depend on the processing

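The 66 genes past the threshold in EOD mice became 258 with every gene of at least 1 count tested, 32 with lane as a term, and 35 to 81 when 1 mouse was left out (35 without young mouse 1, 37 without young mouse 2). They were 46 in the fit of 15 mice, 76 in the fit of 14, 68 with a mean of at least 10 counts, 73 with RLE factors, 94 in DESeq2, 77 in limma voom, 48 at FDR 0.05 and 70 in DESeq2 on 15 mice. The share of increases, 81.8%, was 57.8% with no filter, 71.3% in DESeq2, 71.4% in limma voom, 65.4% without young mouse 3 and 71.2% without old mouse 3. None of the 66 reversed in a setting that gave it a value (13 of 18 for Cst7), and 22 passed in all 18. As the old mice lay apart from the young mice in all 66 genes, their choice largely fixed the direction when a mouse was left out. For the AL mice, testing every gene gave 444 genes in place of 173, and leaving out 1 mouse 102 to 221 (102 without old AL mouse 3). For the interaction, testing every gene gave 26 in place of 0, and leaving out 1 mouse gave 0 each time. Of genes not past the threshold, mt-Cytb (-0.01258 to 0.1367) and mt-Nd6 (-0.09786 to 0.2486) changed sign when old mouse 3 was left out, and mt-Nd6 stood at -0.06058 with lane as a term. The cause was not tested.

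The labels number the mice of each group, but same-numbered old and young EOD mice did not deviate together (correlations of -0.105, -0.0895 and 0.0166). Old and young EOD mice numbered 1 shared lane 1, and those numbered 2 shared lane 2. So few correlations cannot exclude a shared cage or preparation, which was not tested. With a replicate block 44 genes passed in EOD mice, 155 in AL mice and 0 for the interaction.

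Depth limits the scarce genes: Cst7, Clec7a, Cxcl5, Ly9, Gngt2 and Ccl6 had 0 to 25 counts in all young and 53 to 172 in all old mice.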
